A study of Mus musculus with 37 samples.

Results

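Mitochondrial ribosomal proteins were followed in mouse kidneys after ureteral obstruction, across 37 whole-kidney bead arrays from 25 mice in 12 groups. The members are all genes whose symbol begins with Mrpl or Mrps followed by a digit and that had a probe with a detection p under 0.05 on at least 3 arrays. That rule kept 75 of 76 such genes on the array, within 12866 genes kept in all. Mrpl32 was the gene left out: its lowest detection p was 0.109. Where a gene had several kept probes, the one with the highest mean signal stood for it. The large-subunit list holds 48 members, those with Mrpl symbols and Mrps18a, whose protein sits in that subunit. The small-subunit list holds the other 27 members with Mrps symbols, and Mrps30 is counted there although its protein also sits in the large subunit. Of the 75, 69 were detected on all 37 arrays, while Mrps14 and Mrpl19 were detected on 3 arrays and Mrpl45 on 21.

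Mitochondrial ribosomes are made in the mitochondrial matrix from ribosomal RNA encoded by mitochondrial DNA and from proteins encoded in the nucleus, made in the cytosol and imported. They translate the few messenger RNAs of the mitochondrial genome, which encode core subunits of the respiratory chain and of ATP synthase. Proximal tubule cells, the most abundant epithelium of the kidney cortex, are rich in mitochondria and depend on oxidative metabolism for solute transport.

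The obstructed mice were 10 weeks old and had unilateral ureteral obstruction, the tying-off of one ureter, with the contralateral kidney of the same mouse as the unobstructed partner. Twist-line controls were ggt-cre-;Twist flox/flox (3 mice) and Twist1-deleted mice were ggt-cre+;Twist flox/flox (4 mice, 3 of them with a contralateral array), both on a mix of C57Bl/6 and sv129. Snail-line controls were ggt-cre-;Snail flox/flox (3 mice) and Snai1-deleted mice were ggt-cre+;Snail flox/flox (3 mice), both on a mix of C57Bl/6 and Balb/c. Healthy kidneys came from 3 mice each of ggt-cre-;WT and ggt-cre+;WT at 10 weeks on the C57Bl/6 and sv129 mix. Healthy ggt-cre+;Twist flox/flox mice, on the same mix, and healthy ggt-cre+;Snail flox/flox mice, on the C57Bl/6 and Balb/c mix, were 26 weeks old (3 each). The labels' treatment field names obstruction for the healthy mice too, whereas the series design calls them completely healthy. The Twist-line and Snail-line controls carry the floxed alleles without cre, so all mice with obstruction carry floxed alleles. The ggt promoter drives cre in proximal tubule cells, and the RNA came from whole kidney, so other cells keep the floxed gene. The probes of the deleted genes did not check the genotype labels. Twist1 lay between 4.44 and 5.62 on all arrays and the kept Snai1 probe between 4.46 and 6.28, near background on many arrays. Snai1 was called higher with obstruction in Twist-line controls (1.27, adjusted p = 0.000282) and Snail-line controls (0.70, adjusted p = 0.0419), and Twist1 in neither. The differences between deleted and control obstructed kidneys, -0.34 for Twist1 (adjusted p = 0.508) and -0.36 for Snai1 (adjusted p = 0.666), were not called.

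Values are log2 normalised signals, differences are log2 differences of group means, and a gene is called at an adjusted p under 0.05 in a limma fit over all 12866 genes and 37 arrays. Between 16977 and 20682 probes were detected per array. In raw signal, 16 arrays stood apart from the other 21: their 25th percentile ran from 86.3 to 97.7, against 103 to 121. The lower set held all arrays of mice 1 to 6 of the Twist line, controls and Twist1-deleted, and the obstructed kidneys of Snail-line mice 8 to 12. All 6 Twist-line control arrays were thus in the lower set, all Snail-line contralateral arrays in the higher set, and mouse 7 (Twist1-deleted) and mouse 13 (Snai1-deleted) had both kidneys in the higher set. Normalisation was applied to all arrays together; the part of the raw level in the results was not tested beyond the values given within these sets.

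Most mitochondrial ribosomal protein transcripts were lower in the obstructed than in the contralateral kidneys of control mice. In Twist-line controls 51 of 75 members fell and 2 rose, against a background of 20.5% of all genes lower and 26.6% higher. The median member difference was -0.53, beside 0.05 over all genes, and 10 members fell more than 2-fold. In Snail-line controls 38 members fell and 3 rose (background 15.3% lower and 21% higher), with a median of -0.36 beside 0.02 over all genes, and no member fell more than 2-fold. Obstruction and raw-signal set cannot be told apart in that line's controls. Their obstructed arrays were all in the lower set and their contralateral arrays all in the higher set. All 38 were also among the 51 of the Twist line, so the shared genes are 100% of the shorter list and 74.5% of the longer. The groups did not overlap, with every obstructed array lower, for 53 members in the Twist line (background 22.1%) and for 49 in the Snail line (background 22.1%). Called in either direction, 41 members differed in the Snail line. That count was 26 without the obstructed array of mouse 8, 27 without that of mouse 10 and 26 without the contralateral array of mouse 8.

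The deleted mice showed the same direction. In Twist1-deleted mice 50 members fell and 1 rose (background 18.2% lower and 21.9% higher), with a median of -0.46 beside 0.01 over all genes; in a fit on only these 7 arrays 13 members were called. In Snai1-deleted mice 11 members fell and 1 rose (background 4.76% lower and 10.5% higher), with a median of -0.25 beside 0.00. That last count was the least firm: with mouse as a fixed block 5 members were called, with mouse as a random block 20, in a fit on only these 6 arrays 0, and without mouse 13's obstructed array 2. At an unadjusted p under 0.05, 28 of 75 members differed in Snai1-deleted mice, 1 of them higher, beside 3686 of all 12866 genes. The groups did not overlap, obstructed lower, for 37 members in Twist1-deleted mice (background 13.7%) and 34 in Snai1-deleted mice (background 13.4%).

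Averaged over the 75 members, the log2 level was lower in the obstructed than in the contralateral kidney of all 12 mice with both arrays. In Twist-line controls the obstructed kidneys had means of 9.42, 9.41 and 9.40 and their contralateral partners 9.87, 10.00 and 9.94. Twist1-deleted mice 4 and 6 had 9.48 and 9.40 obstructed against 9.98 and 9.94, whereas mouse 7 had 9.84 against 9.99. Mouse 5, without a partner array, had 9.42. The obstructed kidney of mouse 7 therefore stood between the other 3 of its group and the unobstructed kidneys. In Snail-line controls the obstructed means were 9.67, 9.73 and 9.65 against 10.07, 10.01 and 9.96. In Snai1-deleted mice they were 9.96, 9.88 and 9.74 against 10.08, 10.05 and 10.07. Within mice whose 2 arrays lay in the same raw-signal set, 69, 67 and 67 members were lower in mice 1 to 3, 70 and 68 in mice 4 and 6, 61 in mouse 7 and 65 in mouse 13. Healthy groups had means from 10.04 to 10.12, and no obstructed array reached the lowest healthy array, at 10.00. In all 12 mice 40 members were lower in the obstructed kidney (14.4% of all genes were), and 1 member, Mrpl33, was higher in all 12. The share of all genes higher in all 12 is not given here.

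**Figure D1:**
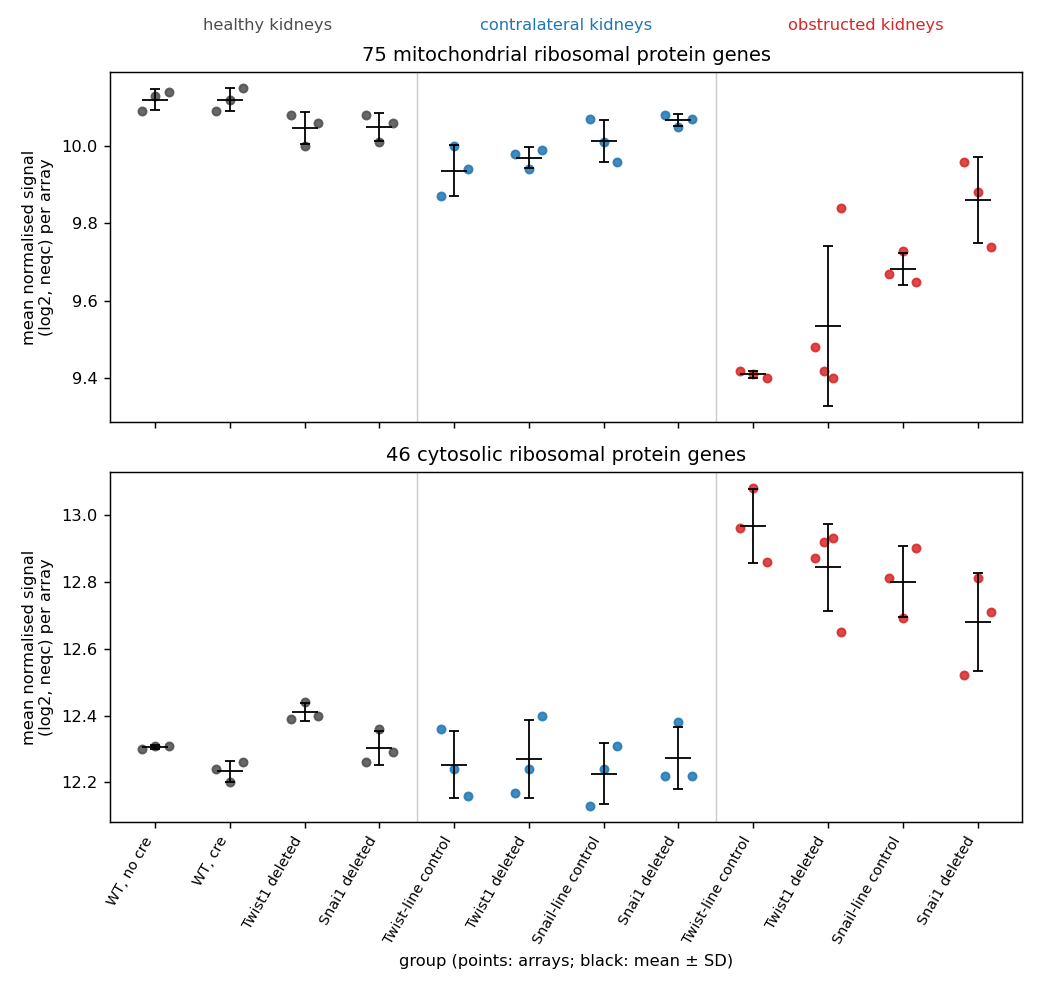
Mean log2 normalised signal (vertical axes) over the 75 mitochondrial ribosomal protein genes (top) and over 46 cytosolic ribosomal protein genes (bottom) on each of the 37 arrays by group (horizontal axis); points are arrays and black marks are group means with SD. The 3 Twist-line control obstructed kidneys sit at 9.40 to 9.42 and mouse 7 stands at 9.84 among the Twist1-deleted obstructed kidneys, while healthy group means lie between 10.04 and 10.12.

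In all 4 obstruction comparisons 10 members fell, that is 13.3% of the members beside 3.82% of all genes. They were Mrpl4, Mrpl12, Mrpl16, Mrpl34, Mrpl43, Mrpl55 and Mrpl58 of the large subunit and Mrps21, Mrps34 and Mrps35 of the small subunit. Another 26 fell in exactly 3 comparisons, 12 in 2, 8 in 1 and 19 in none. The estimate was below 0 in all 4 comparisons for 62 members and above 0 in all 4 for 4 members (Mrpl23, Mrpl33, Mrpl36 and Mrpl52).

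Mrpl16, a conserved large-subunit protein near the site where peptide bonds form, gave the clearest fall. Its obstructed levels were 8.14, 7.94 and 8.16 in Twist-line controls, 8.32, 8.24, 7.95 and 8.89 in Twist1-deleted mice, 8.78, 8.68 and 8.62 in Snail-line controls and 8.99, 9.02 and 8.86 in Snai1-deleted mice. Its contralateral levels in the same order of groups were 9.10, 9.42 and 9.37, then 9.67, 9.56 and 9.27, then 9.78, 9.75 and 9.39, then 9.67, 9.33 and 9.81. All 13 obstructed arrays were below all 24 others, whose range was 9.10 to 10.19. Only Mrpl16 and Mrpl12 among the 75 members separated downward in this way, beside 1.3% of all genes, and with the authors' deposited normalised values no member did. The Mrpl16 difference was -1.22 (SE 0.18, adjusted p = 3.34e-06) in Twist-line controls and -0.95 (adjusted p = 0.000165) in Snail-line controls. It was -1.15 (SE 0.17, adjusted p = 5.96e-06) in Twist1-deleted and -0.65 (adjusted p = 0.0143) in Snai1-deleted mice.

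Mrpl12 forms part of the stalk that recruits translation factors and also binds the mitochondrial RNA polymerase. Its obstructed levels were 11.02, 11.08 and 11.25 in Twist-line controls, 11.30, 11.38, 11.60 and 11.87 in Twist1-deleted mice, 11.70, 11.79 and 11.34 in Snail-line controls and 12.04, 11.81 and 11.78 in Snai1-deleted mice. The 24 unobstructed arrays lay between 12.08 and 12.51. The differences were -1.10 (SE 0.14, adjusted p = 2.25e-07), -0.73 (adjusted p = 4.84e-05), -0.70 (adjusted p = 0.000193) and -0.41 (adjusted p = 0.0374) in that order of groups. The Twist-line control arrays were the lowest. The array nearest to the unobstructed range, without overlap, was a Snai1-deleted one at 12.04, followed by mouse 7 of the Twist1-deleted group at 11.87.

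Mrpl4, a conserved protein lining the exit tunnel of the large subunit, was at 8.48, 8.34 and 8.34 in the obstructed kidneys of Twist-line controls and at 9.42, 9.84 and 9.85 in their contralateral kidneys. The fall of 1.32 on the log2 scale (SE 0.20, adjusted p = 3.05e-06) was the largest of any member in that comparison. In Snail-line controls the obstructed arrays were at 8.97, 9.41 and 8.73 against 10.07, 9.96 and 9.83, a difference of -0.91 (adjusted p = 0.000532). The differences were -0.96 (adjusted p = 0.000141) in Twist1-deleted mice and -0.61 (adjusted p = 0.0334) in Snai1-deleted mice. Mrps35, a small-subunit protein with no bacterial counterpart, fell by a similar amount in each genotype: -0.71, -0.68, -0.63 and -0.62 in Twist-line controls, Snail-line controls, Twist1-deleted and Snai1-deleted mice. Its obstructed arrays ranged from 8.80 to 9.84, which overlaps the unobstructed arrays across genotypes but not within any genotype. Mrpl58, a peptidyl-tRNA hydrolase that releases stalled chains and is built into the large subunit, differed by -0.79, -0.61, -0.80 and -0.39 in the same order, all called. Mrps21 differed by -1.03, -0.86, -0.60 and -0.49, all called.

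**Figure D2:**
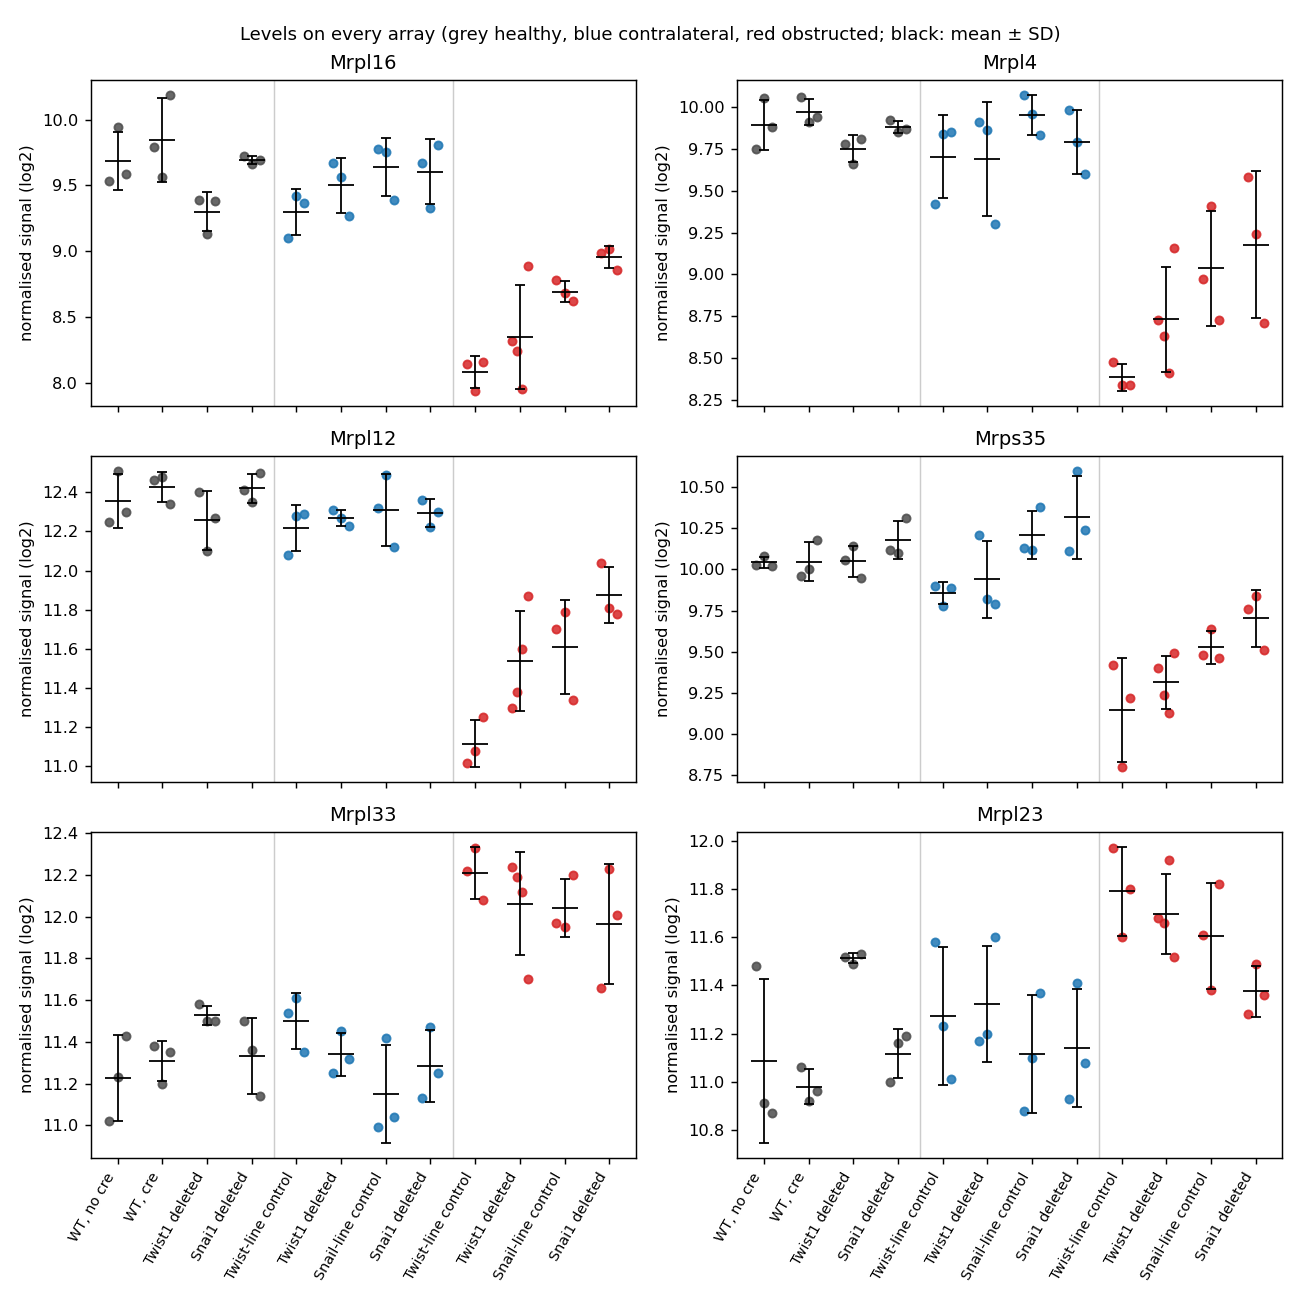
Log2 normalised signal (vertical axes) of Mrpl16, Mrpl4, Mrpl12, Mrps35, Mrpl33 and Mrpl23 on every array by group (horizontal axes; grey healthy, blue contralateral, red obstructed), with group means and SD in black. Mrpl12 shows all red points between 11.02 and 12.04 below all others, and Mrpl33 shows all red points between 11.66 and 12.33 above all others.

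Members of both lists fell. Of the 48 large-subunit members 36 fell in Twist-line controls, 25 in Snail-line controls, 35 in Twist1-deleted and 7 in Snai1-deleted mice. Of the 27 small-subunit members the counts were 15, 13, 15 and 4. Members with a counterpart in bacterial ribosomes fell in 30, 23, 29 and 5 of 46 cases, and those found only in mitochondrial ribosomes in 21, 15, 21 and 6 of 29. No test was made of a difference between these groups.

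Among the remaining large-subunit members, Mrpl18 differed by -1.30 in Twist-line controls, -0.86 in Snail-line controls and -0.78 in Twist1-deleted mice, all called, and by -0.46 in Snai1-deleted mice (adjusted p = 0.0895). Mrpl42 and Mrpl22, the latter another protein of the exit tunnel, fell by 1.16 and 1.10 on the log2 scale in Twist-line controls. For Mrpl42 the obstructed Twist-line control arrays were at 10.79, 10.31 and 10.43 against 11.59, 11.79 and 11.62. In Snail-line controls Mrpl20, needed early in assembly of the bacterial large subunit, differed by -0.94 and Mrpl34 by -0.90. In Twist1-deleted mice Mrpl39 differed by -0.96 and Mrpl35 by -0.93. Mrpl55 differed by -0.59 in Snai1-deleted mice. Mrpl44, related to ribonuclease III and mutated in a human infantile cardiomyopathy, differed by -0.89, -0.48, -0.64 and -0.27 in Twist-line controls, Snail-line controls, Twist1-deleted and Snai1-deleted mice, the last not called. Mrpl3, a conserved large-subunit protein, was called in Twist1-deleted mice (-0.39, adjusted p = 0.0449).

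In the small subunit, Mrps5 differed by -1.05 in Twist-line controls, -0.88 in Snail-line controls and -0.95 in Twist1-deleted mice, all called, and by -0.43 in Snai1-deleted mice (adjusted p = 0.085). Mrps15 differed by -0.91 in Snail-line controls. Mrps22, in which human mutations cause mitochondrial disease, differed by -0.82, -0.35 and -0.49 in those first 3 genotypes, all called, and by -0.33 in Snai1-deleted mice, not called. Mrps16 differed by -0.46, -0.42 and -0.34, all called, and by -0.24, not called. Mrps12, a protein of the decoding centre, differed by -0.36 in both control lines, both called, and by -0.23 and -0.09 in the deleted mice, neither called. Mrps30, listed here by its symbol, was called in Twist1-deleted mice (-0.32, adjusted p = 0.00808). Mrps6 was called in no comparison, with estimates of -0.35, -0.40, -0.51 and -0.08.

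The 3 relatives of 1 bacterial protein, Mrps18a, Mrps18b and Mrps18c, gave different results. Mrps18a fell in Twist-line controls (-0.62) and Twist1-deleted mice (-0.39), and was not called in Snail-line controls (-0.25) or Snai1-deleted mice (-0.03). Mrps18c was called in none, with estimates from -0.39 to -0.10. Mrps18b was called in none by its brightest probe, with -0.19 in Twist-line controls and 0.02 in Twist1-deleted mice. Its other 2 probes were at -0.97 and -0.99 in Twist-line controls (adjusted p = 0.000556 and 0.000883 in the probe-level fit) and at -0.71 and -0.67 in Twist1-deleted mice. The probes of Mrps18b thus disagree, and with the mean of its probes it was called lower in Twist1-deleted mice (-0.46, adjusted p = 0.0393). Of the 27 members with several kept probes, 25, 23, 23 and 23 had the same sign in all probes in Twist-line controls, Snail-line controls, Twist1-deleted and Snai1-deleted mice. Among called members, the probes differed in sign for Mrpl1 (Snail-line controls), Mrpl3 and Mrps5 (Twist1-deleted mice) and Mrps15 (Twist-line controls); no probe of the other sign was called.

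A few members did not follow the group. Mrpl33, a small conserved large-subunit protein, was at 12.22, 12.33 and 12.08 in the obstructed and 11.54, 11.61 and 11.35 in the contralateral kidneys of Twist-line controls. In Snail-line controls it was at 11.97, 11.95 and 12.20 against 10.99, 11.42 and 11.04. In Twist1-deleted mice its obstructed levels were 12.24, 12.19, 12.12 and 11.70, and in Snai1-deleted mice 11.66, 12.23 and 12.01. It was higher on all 13 obstructed arrays than on all 24 others (10.99 to 11.61), beside 4.95% of all genes that separated upward. The rises were 0.71 (SE 0.15, adjusted p = 0.000379), 0.89 (adjusted p = 4.7e-05), 0.72 (adjusted p = 0.000229) and 0.68 (adjusted p = 0.00256) in Twist-line controls, Snail-line controls, Twist1-deleted and Snai1-deleted mice. Its second probe gave 0.94, 0.78, 0.78 and 0.63. The call depended on the scaling: with the authors' deposited normalised values, in which the median of all genes shifted by -0.09, -0.08, -0.14 and -0.04, Mrpl33 was at 0.09 (adjusted p = 0.659), 0.37 (adjusted p = 0.0424), 0.28 (adjusted p = 0.0917) and 0.44 (adjusted p = 0.036). The separation depended on it too. With those values the obstructed arrays overlapped the others for Mrpl33, and 0 members separated upward, beside 3.61% of all genes.

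Mrpl23, a conserved protein at the mouth of the exit tunnel, was at 11.97, 11.60 and 11.80 in the obstructed and 11.58, 11.23 and 11.01 in the contralateral kidneys of Twist-line controls. It rose there by 0.52 (adjusted p = 0.0137) and in Snail-line controls by 0.49 (adjusted p = 0.026), and was not called in Twist1-deleted (0.37, adjusted p = 0.0633) or Snai1-deleted mice (0.24, adjusted p = 0.38). Its direction flipped in Twist-line controls with the authors' deposited normalised values (-0.05). Mrps17 rose in Snail-line controls (0.31, adjusted p = 0.0152), was not called elsewhere (0.18, -0.01 and 0.13 in Twist-line controls, Twist1-deleted and Snai1-deleted mice), and was at -0.19 in Snail-line controls with those deposited values. The other members called in neither direction in any of the 4 obstruction comparisons were Mrpl2, Mrpl17, Mrpl19, Mrpl24, Mrpl36, Mrpl45, Mrpl52, Mrps9, Mrps14, Mrps24, Mrps26, Mrps27 and Mrps33. With Mrps6, Mrps18b and Mrps18c they make 16. Mrpl19, Mrpl45 and Mrps14 were the 3 dimmest members. Mrpl19 and Mrps14, detected on 3 arrays each, were near background, so a fall in them could hardly be measured. Mrps24 and Mrps33 were among the brightest. Mrpl12 was the other of the 3 brightest.

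**Figure D3:**
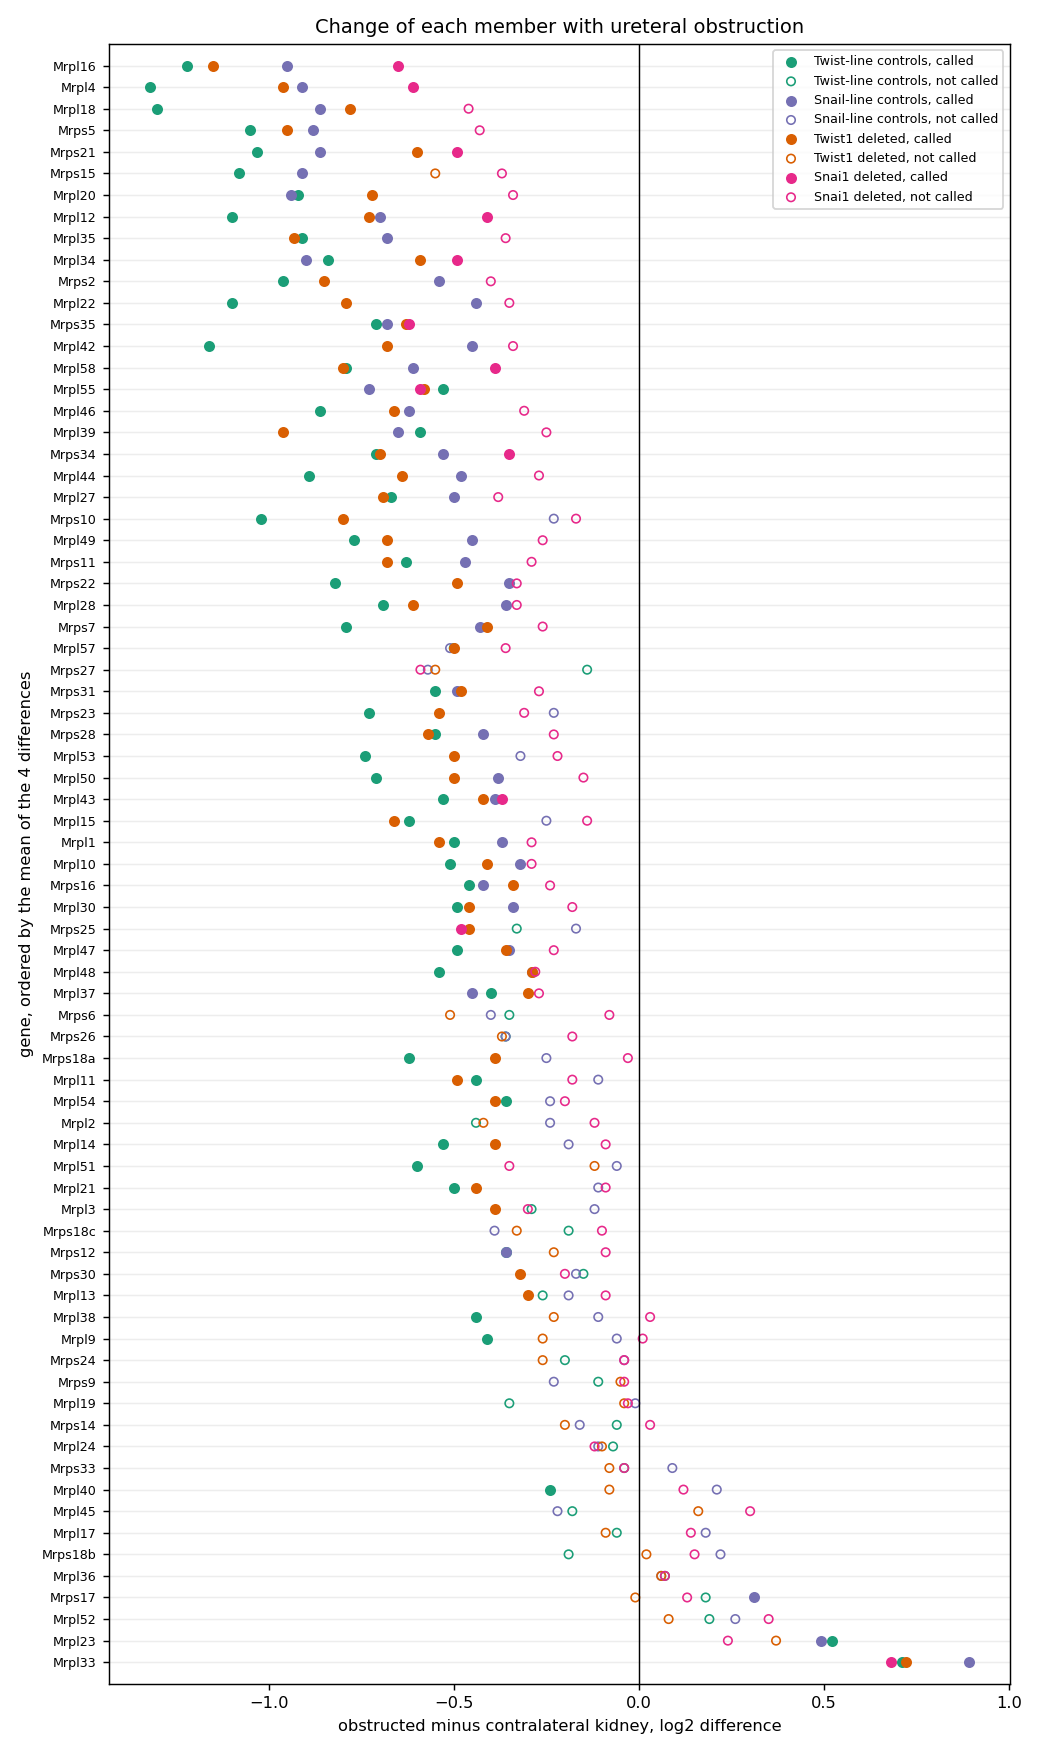
Obstructed minus contralateral log2 difference (horizontal axis) of the members (vertical axis) in the 4 genotypes with obstruction; filled points passed the threshold. Most points lie left of 0, Mrpl4 reaches -1.32 in Twist-line controls, and Mrpl33 lies between 0.68 and 0.89 in all 4.

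The order of the members by their difference was similar across genotypes that share no arrays, while the sizes differed, as the medians above show. Over the 75 members, Pearson's r was 0.834 between Twist-line and Snail-line controls, 0.876 between Twist-line controls and Twist1-deleted mice, and 0.857 between Snail-line controls and Snai1-deleted mice. Over all genes the values were 0.911, 0.935 and 0.927. These correlations are across genes, which are not independent replicates, and describe the shared pattern only.

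The promoters of a few of these genes show what the members do and do not share in sequence. Windows from 250 bases before to 50 after the gene start (RefSeq, build GRCm38.p6) were available for 66 of the 75 members. Shown 5′ to 3′ on the gene's strand are 2 genes that fell in all 4 comparisons, 2 that were among the largest falls in Twist-line controls, and the 1 that rose in all 4. Mrpl16 (chr19:11770165-11770464, plus strand) held none of the motifs searched. Mrpl34 (chr8:71464676-71464975, plus strand) and Mrpl22 (chr11:58171414-58171713, plus strand) held the ETS letters CCGGAAG bound by the nuclear respiratory factor GABP. Mrpl22 also held GCATGCGC, the core of the NRF1 motif, on the other strand. Mrpl42 (chr10:95501900-95502199, minus strand) held the YY1 letters AAGATGGC. Mrpl33 (chr5:31613701-31614000, plus strand) held both the NRF1 and the GABP letters. Capitals mark these matches:
Mrpl16: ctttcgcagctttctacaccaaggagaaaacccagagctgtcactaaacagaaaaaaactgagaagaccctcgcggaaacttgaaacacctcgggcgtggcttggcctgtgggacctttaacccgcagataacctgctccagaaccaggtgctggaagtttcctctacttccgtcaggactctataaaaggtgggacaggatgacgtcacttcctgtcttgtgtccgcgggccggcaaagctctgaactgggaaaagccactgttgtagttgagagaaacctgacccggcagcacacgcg
Mrpl34: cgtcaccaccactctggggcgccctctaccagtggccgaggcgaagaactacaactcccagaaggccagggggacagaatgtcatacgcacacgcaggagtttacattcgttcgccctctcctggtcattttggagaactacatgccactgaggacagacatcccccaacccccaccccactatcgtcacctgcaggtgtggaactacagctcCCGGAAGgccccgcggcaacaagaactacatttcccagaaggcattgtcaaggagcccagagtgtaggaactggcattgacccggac
Mrpl22: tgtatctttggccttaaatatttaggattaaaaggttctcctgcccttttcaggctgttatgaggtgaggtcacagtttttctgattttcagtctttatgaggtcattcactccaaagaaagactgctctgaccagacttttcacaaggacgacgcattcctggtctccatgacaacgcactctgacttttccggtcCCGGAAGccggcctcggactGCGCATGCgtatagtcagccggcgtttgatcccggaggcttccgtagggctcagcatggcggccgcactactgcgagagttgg
Mrpl42: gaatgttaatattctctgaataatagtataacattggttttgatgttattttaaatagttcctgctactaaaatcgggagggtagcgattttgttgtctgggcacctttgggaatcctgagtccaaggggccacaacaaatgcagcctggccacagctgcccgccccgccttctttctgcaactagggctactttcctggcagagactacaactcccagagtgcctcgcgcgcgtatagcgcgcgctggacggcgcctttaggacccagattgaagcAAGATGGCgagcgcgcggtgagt
Mrpl33: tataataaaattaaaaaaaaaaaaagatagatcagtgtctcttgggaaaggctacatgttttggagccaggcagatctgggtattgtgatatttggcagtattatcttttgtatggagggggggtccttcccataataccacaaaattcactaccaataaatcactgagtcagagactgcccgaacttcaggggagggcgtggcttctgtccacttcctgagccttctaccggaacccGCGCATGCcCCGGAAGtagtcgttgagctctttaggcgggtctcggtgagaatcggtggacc

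The GABP letters lay 37 bases upstream of the start in Mrpl34, 53 upstream in Mrpl22 and 3 upstream in Mrpl33, and the NRF1 letters 33 upstream in Mrpl22 and 12 upstream in Mrpl33. The YY1 letters in Mrpl42 lay 28 bases downstream of the start. Both strands were searched, exact letters only, and no match overlapped another in the 5 windows shown. CCGGAAG was in 26 members (39.4%) beside 12.9% of 17491 protein-coding genes with a window. GCATGCGC was in 7 members (10.6%) beside 3.93%, AAGATGGC in 11 (16.7%) beside 3.57%, the E-box CACGTG in 5 (7.58%) beside 8.91%, and the oestrogen-related receptor letters TCAAGGTCA in 0 beside 0.377%. The member windows had a median GC content of 58.8%, beside 56.3% over all windows, which bears on GC-rich letters. Members with and without the GABP letters had median differences over the 4 obstruction comparisons of -0.36 and -0.40. With and without the NRF1 letters the medians were -0.18 and -0.42, and with and without the YY1 letters -0.46 and -0.37. A match is a description of these letters only, and the same GABP and NRF1 letters stood in Mrpl22, which fell in Twist-line controls, and in Mrpl33, which rose.

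The rest of the mitochondrial gene expression machinery was read beside the members from lists chosen with earlier results known. Of 14 mitochondrial aminoacyl-tRNA synthetases, which charge tRNAs, 11 fell in Twist-line controls, 9 in Snail-line controls, 10 in Twist1-deleted and 2 in Snai1-deleted mice. Lars2, the leucyl enzyme, differed by -1.13, -0.96 and -0.73 in the first 3, all called, and by -0.46 in Snai1-deleted mice, not called. Of 13 translation factors 10, 9, 10 and 5 fell, and 1 rose in Twist1-deleted mice; Tufm, the elongation factor that brings charged tRNA to the ribosome, differed by -0.39, -0.60, -0.39 and -0.28, all called. Of 22 assembly and RNA-handling genes 12, 10, 10 and 1 fell. Lrpprc, which stabilises mitochondrial messenger RNA, differed by -1.46, -0.77 and -1.05, all called, and by -0.56, not called. Dap3, a small-subunit protein under another symbol, was at -0.03 in Twist-line controls, not called. Of 11 genes of mitochondrial DNA upkeep and transcription 7, 6, 7 and 2 fell, and of 18 markers of general mitochondrial content 14, 13, 13 and 2. Tfam, which packages mitochondrial DNA, was called in Twist-line controls (-0.55) and Twist1-deleted mice (-0.64), and Polrmt, the mitochondrial RNA polymerase, in none.

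Nuclear-encoded respiratory subunits moved with the mitochondrial ribosome: 41, 37, 36 and 9 of 44 fell, with medians of -0.81, -0.73, -0.57 and -0.42. Cytosolic ribosomal proteins moved the other way: 40, 35, 38 and 23 of 46 rose and 0 fell, with medians of 0.71, 0.59, 0.57 and 0.41. With the authors' deposited normalised values the cytosolic counts were 13 (and 1 lower), 4, 5 and 1, with medians of 0.16, 0.03, 0.14 and 0.11, so this rise depended on the scaling. The direction of the members' fall did not depend on it, but its size did. With those values 60, 53, 56 and 11 members fell. Their medians were -0.82, -0.64, -0.66 and -0.34 with those values, beside -0.53, -0.36, -0.46 and -0.25. Over all genes, the share of calls that were higher was 43.6%, 45.1%, 41.2% and 66.4% with those values, beside 56.5%, 57.9%, 54.6% and 68.8%. Among regulators of mitochondrial biogenesis, Esrra differed by -1.14, -1.04, -0.78 and -0.61, all called. Its coactivator partner Ppargc1a differed by -1.40 and -1.12 in Twist-line and Snail-line controls, both called, and by -0.68 and -1.01 in Twist1-deleted and Snai1-deleted mice, neither called. Nrf1 rose in Twist-line controls (0.60), Gabpa fell in Snai1-deleted mice (-0.75), and Myc, a driver of cytosolic ribosome genes, rose in Snail-line controls (0.66), Twist1-deleted (0.49) and Snai1-deleted mice (0.81).

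**Figure D4:**
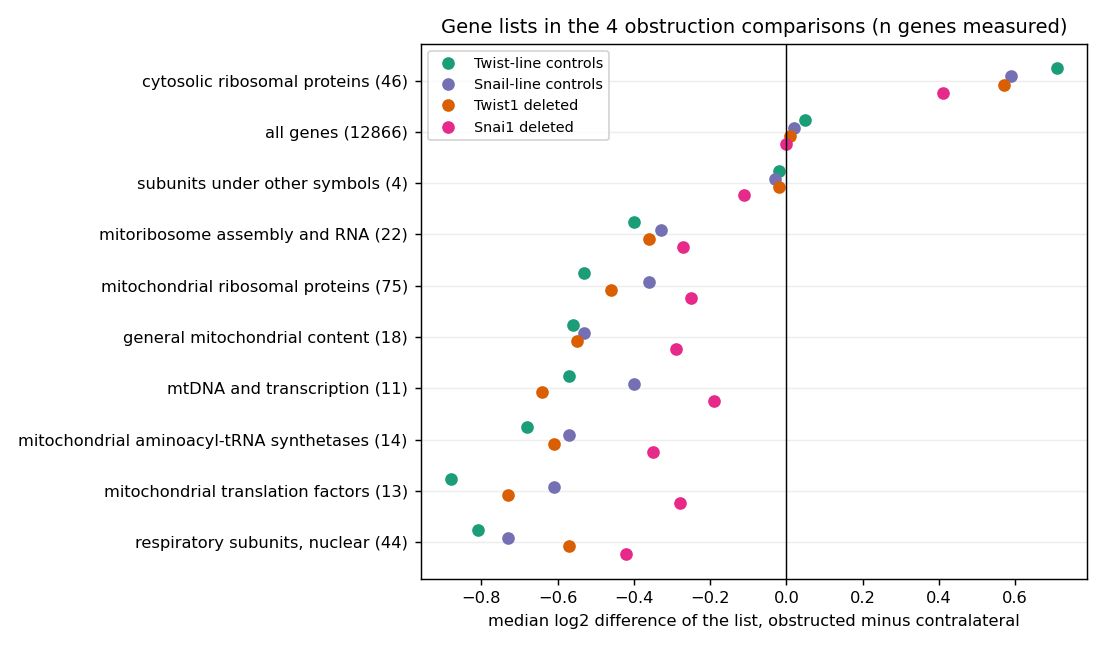
Median obstructed minus contralateral log2 difference (horizontal axis) over each gene list (vertical axis) in the 4 genotypes with obstruction. The mitochondrial ribosomal proteins lie between -0.53 and -0.25 and the respiratory subunits between -0.81 and -0.42, while the cytosolic ribosomal proteins lie between 0.41 and 0.71.

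Cell-type markers moved with obstruction too. All 10 proximal tubule markers fell in Twist-line controls, and 9, 9 and 3 in Snail-line controls, Twist1-deleted and Snai1-deleted mice. Their mean level was 9.24 ± 1.13 (SD, n = 3) in obstructed and 12.37 ± 0.06 in contralateral kidneys of Twist-line controls, and 11.45 ± 0.33 against 12.43 ± 0.05 in Snai1-deleted mice. Mouse 7, whose member mean was the highest of the obstructed Twist1-deleted kidneys, also had the highest proximal tubule level there, 11.76, and the lowest myeloid level, 9.37. Its thick limb and distal level (13.16) and collecting duct level (9.32) were also the highest there, and its tubular injury level (9.15) the lowest. Myeloid markers rose in 7, 8, 8 and 8 of 8 cases, with means of 10.38 ± 0.10 against 7.04 ± 0.30 in Twist-line controls. Fibroblast markers rose in 5, 5, 5 and 4 of 5 and tubular injury markers in 4 of 4 in each genotype. In whole-kidney RNA fewer tubule cells and less RNA per cell cannot be told apart, and the part of cell makeup in the members' fall was not tested.

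Deletion of Twist1 or Snai1 in the proximal tubule gave no called member. In obstructed kidneys 0 of 75 were called for Twist1 (background 0.0311%) and 0 for Snai1 (background 0%). At an unadjusted p under 0.05 there were 9 members in each, all of them higher in the deleted mice. Among all 12866 genes there were 1475 for Twist1 and 1421 for Snai1 in either direction, so the members' share was near that of all genes. The estimate was above 0 in 59 members for Twist1 and 68 for Snai1, beside 46.4% and 48.9% of all genes, and 55 members were above 0 in both. The medians were 0.10 and 0.15. The Twist1 count leaned on mouse 7: without it 31 members were below 0 and the median was 0.04. Mrpl12 had the smallest p for Twist1, with levels of 11.30, 11.38, 11.60 and 11.87 against 11.02, 11.08 and 11.25. The difference was 0.42 (95% interval 0.16 to 0.68, adjusted p = 0.228), and 0.31 without mouse 7. Mrps15 was at 0.65 (adjusted p = 0.298), and 0.34 without mouse 7. For Snai1, Mrpl34 was at 10.44, 10.28 and 10.16 against 9.68, 9.85 and 10.03, a difference of 0.44 (adjusted p = 0.278), and Mrpl20 was at 0.81 (adjusted p = 0.286). The bacterial-type proteins Mrpl34 and Mrpl20 did not overlap between these groups, yet neither passed the threshold. They were among 14 of 75 members with every Snai1-deleted array higher, beside 8.25% of all genes. Every deleted array was lower for 0 members, beside 9.05% of all genes.

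**Figure D5:**
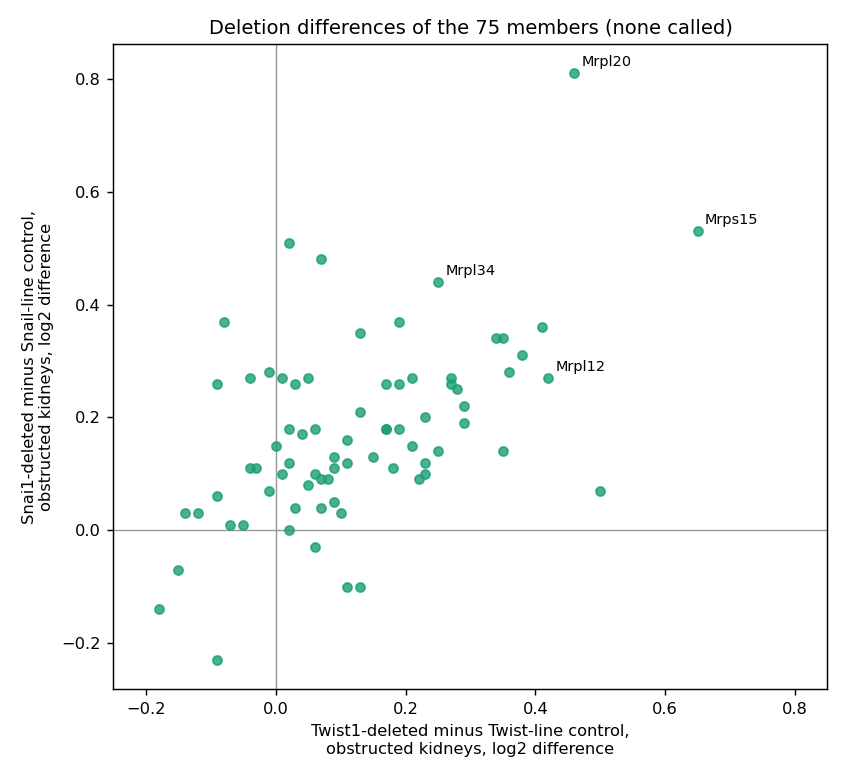
Deleted minus control log2 difference in obstructed kidneys for Twist1 (horizontal axis) and Snai1 (vertical axis); each point is 1 of the 75 members. The upper right area holds 55 points, with Mrpl20 at 0.81 for Snai1 and Mrps15 at 0.65 for Twist1, and no point passed the threshold on either axis.

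The test of whether deletion changed the obstruction difference called 0 members for Twist1 (background 0%) and 0 for Snai1 (background 0%). At an unadjusted p under 0.05 there were 3 and 1 members, beside 757 and 408 of all 12866 genes. The smallest p values belonged to Mrps21 (0.43) and Mrps7 (0.37) for Twist1 (both adjusted p = 0.827) and to Mrpl34 (0.41) and Mrps5 (0.46) for Snai1 (both adjusted p = 1). So the lower count in Snai1-deleted mice was not shown to differ from that of their controls. Between the control lines the obstruction difference was called for 0 members (background 0.0389%). At an unadjusted p under 0.05 there were 10 members, beside 1259 of all 12866 genes. In all 10 the obstructed minus contralateral difference was higher in the Snail line. Mrpl40 (0.45, adjusted p = 0.245) and Mrpl22 (0.66, adjusted p = 0.365) had the smallest p values. Line, strain mix and the raw-signal sets cannot be told apart in that contrast.

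In contralateral kidneys 0 members were called for Twist1 (background 0.00777%) and 0 for Snai1 (background 0%). At an unadjusted p under 0.05 there were 2 and 1 members, beside 663 and 328 of all 12866 genes. Mrpl39 was at 0.73 (adjusted p = 0.635) and Mrpl58 at 0.31 for Twist1, and Mrps25 at 0.33 and Mrpl14 at 0.24 for Snai1 (both adjusted p = 1). Cre alone in healthy wild-type kidneys called 0 members (background 0.0155%). At an unadjusted p under 0.05 there was 1 member, Mrps12 (-0.46, adjusted p = 1), beside 306 of all 12866 genes. Mrpl48 had the next smallest p, at 0.15.

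The contralateral kidney of Twist-line controls was compared with healthy wild-type kidneys without cre. There 10 members were lower and 0 higher (background 9.15% lower), so the share of members called lower, 13.3%, was not far from that of all genes. The median member difference was -0.17 beside 0.00 over all genes, and 69.3% of members were below 0 beside 50%. The groups did not overlap, contralateral lower, for 30 members (background 18.6%). Mrpl39 was at 5.15, 5.65 and 5.39 against 6.46, 6.61 and 6.55, a difference of -1.14 (SE 0.23, adjusted p = 0.00169). Mrpl51 was at -0.92 (adjusted p = 0.00541), Mrps26 at -0.79 (adjusted p = 0.0103), Mrps30 at -0.37 (adjusted p = 0.0114) and Mrpl1 at -0.53 (adjusted p = 0.0135). The others were Mrpl2, Mrpl20, Mrpl52, Mrps12 and Mrps15. The raw-signal sets go with this contrast: the contralateral arrays lie in the lower set and the healthy arrays in the higher set. Mouse 7's contralateral array, in the higher set, was above the other 5 Twist-line contralateral arrays for 9 of the 10 members. Since the 10 were called for low levels on 3 of those 5 arrays, this is a description only. Over all 75 members that array was above the other 5 for 24, beside 30.2% of all genes. Mouse 7 lay within or above the range of the healthy arrays for Mrpl39 (6.63 against 6.46 to 6.61), Mrpl52 (10.73 against 10.29 to 10.67) and Mrps26 (10.86 against 10.70 to 10.97), among others. It stayed below them for Mrpl1 (9.34 against 9.71 to 9.79), Mrps30 (10.76 against 10.89 to 11.04) and Mrpl51 (6.43 against 7.04 to 7.43). In Twist1-deleted mice 4 and 6 Mrpl39 was at 5.92 and 5.81. In the Snail-line contralateral kidneys, also in the higher set, Mrpl39 was at 6.48, 6.25 and 6.41 in controls. Their means of Mrpl2, Mrpl20, Mrpl52, Mrps12, Mrps15 and Mrps26 also lay nearer to the healthy than to the Twist-line control contralateral means. In contrast, Mrpl51 (6.34) and Mrps30 (10.63) lay nearer to the Twist-line means (6.27 and 10.62) than to the healthy means (7.18 and 10.99). Mrpl1 lay between the Twist-line and healthy means. Raw level and group cannot be told apart for the Twist-line controls. With the authors' deposited normalised values 44 members were lower, with the median of all genes at -0.25, and 6 were called without the contralateral array of mouse 2 or the healthy array of mouse 17.

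Healthy deleted mice were compared with healthy wild-type mice that carry cre. Mrpl36, a very short conserved protein of the large subunit, was the 1 member called for Twist1 (background 3.39%). It was at 10.58, 10.68 and 10.46 against 11.10, 11.36 and 11.38, a difference of -0.71 (SE 0.13, adjusted p = 0.00573), without overlap. In this contrast 18 of 75 members were lower without overlap, beside 16.7% of all genes. For Snai1 0 members were called (background 0.871%), with 8 at an unadjusted p under 0.05, beside 1299 of all 12866 genes. Mrpl15 was at -0.51 (adjusted p = 0.0872) and Mrpl36 at -0.44 (adjusted p = 0.15). The deleted mice were 26 weeks old and the wild-type mice 10 weeks, so age and genotype cannot be told apart, and neither can strain mix for Snai1. Mrpl36 was called in no obstruction comparison.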

How the data were processed

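RNA of 37 whole kidneys was isolated with Trizol, checked on an Agilent Bioanalyser, amplified to biotin cRNA with an Ambion MessageAmp kit and hybridised to Illumina bead arrays, per the labels' protocols; signals came from GenomeStudio 5.0, per the submitters' processing notes. The authors deposited 2 tables: average signal intensity per probe with a detection p-value, not normalised, and normalised intensity values whose method is not given in the sources used here. The normalised values were linear in the average signal of each array; their centring stays unknown, and they served as an alternative scaling. Of 45281 probes 34885 had 1 gene symbol, 18 several and 10378 none; symbols came from the platform table and were updated through the reference gene table.

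Here the average signals were background-corrected and quantile-normalised with limma 3.58.1 in R 4.3.3 (neqc, offset 16) and analysed as log2 values. Probes with detection p under 0.05 on 3 or more arrays were kept, and the probe with the highest mean stood for a gene. One model with 12 group means over 37 arrays gave moderated tests (lmFit, eBayes), with Benjamini-Hochberg adjustment over 12866 genes and 15 comparisons read separately; the main model has no mouse block. Same-numbered kidneys come from the same mouse, and their residuals correlated (0.171 to 0.63 in 12 of 12 pairs). The number of arrays limits the precision. Slide numbers and array batches are not given in the sources used here. The fit was tested on simulated data. Alternatives were the deposited normalised values, quantile normalisation without a background step, other detection filters, the mean of a gene's probes, mouse blocks, only the arrays compared, trend and robust variance, and leaving out each array; leaving out both kidneys of mouse 7 was added after seeing the data. Named genes are the 5 largest called rises and falls per obstruction comparison, the smallest p values elsewhere, members chosen by role, the 3 brightest and 3 dimmest members, members whose probes disagree in sign, and a short list of regulators. Members and lists were chosen with earlier results of these data known. Windows for the promoter motifs run from 250 bases before to 50 after the start.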

Additional observations from a re-analysis of the deposited data

Results flagged for a closer look

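The obstructed kidneys of the 4 Twist1-deleted mice were the only group large enough to look for single arrays far from the rest, since groups of 3 were not examined. All values past the limit there came from mouse 7. Mrpl20, a large-subunit protein, was at 10.10 there, with the other 3 kidneys between 8.62 and 8.84. Mrpl3 was at 9.68, Mrpl51 at 6.61 and Mrps17 at 11.49 in the same kidney, each separated from the other 3 by a gap that took up most of the group's range (past Dixon's 95% limit for 4 arrays). Of 40 values looked at in that group, 4 passed that limit, and chance alone flags about 1 in 20 such groups; the 4 share 1 array and are not independent. The same kidney had the highest member mean (9.84) and the highest proximal tubule marker level (11.76) of its group. Its thick limb and distal (13.16) and collecting duct (9.32) marker levels were the highest there too. The Twist1 differences are given with and without this mouse.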

How the results depend on the processing

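The obstruction counts of called members were 53 in Twist-line controls, 41 in Snail-line controls, 51 in Twist1-deleted and 12 in Snai1-deleted mice. Leaving out 1 array at a time gave 47 to 54, 26 to 37, 43 to 59 and 2 to 16. With mouse as a fixed replicate block Snai1-deleted mice had 5 calls and as a random replicate block 20; fitted on only the arrays compared they had 0 and Twist1-deleted mice 13. The replicate block moved no other count of calls by over 1.5 times except the healthy Twist1 contrast (1 to 2, random block). That healthy Twist1 contrast had 3 calls with quantile normalisation and with the mean of probes, 2 with the deposited normalised values, the stricter detection filter and trend and robust variance, and 6 on only the arrays compared; the healthy Snai1 contrast had 2 on only the arrays compared (main 0). The contralateral against healthy contrast had 44 calls with the deposited normalised values and 6 to 10 when 1 array was left out (main 10). The deletion, interaction, line and cre contrasts stayed at 0 called members under every alternative run and array left out. Directions reversed for Mrpl23 in Twist-line controls (-0.05) and Mrps17 in Snail-line controls (-0.19) with the deposited normalised values, and for Mrps18b in Twist1-deleted mice (-0.46) with the mean of probes. Of the named genes' values, 1447 kept direction and side of the threshold, 108 lost the call, 19 gained one, 3 reversed and 2 moved; the causes were not tested. Slide as a block was not run. Groups of 3 or 4 arrays limit every count.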
